A study of Mus musculus with 19 samples.

Results

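The 36 liver endothelial and adhesion genes described here comprise 10 markers of sinusoidal endothelial cells, 7 vascular receptors, 4 angiocrine factors, 10 genes of the junction and vessel wall and 5 leukocyte adhesion molecules. They were listed by name, and each was represented by its brightest probe set among those annotated to a single gene. All 36 were among the 18193 genes on the array, and 31 of them were among the 8515 genes over a filter on dim signals, a log2 level over 4 on at least 4 arrays. RNA was measured on Affymetrix arrays in 19 livers of male C57BL/6 mice aged 10 to 12 weeks, killed 2 h after 85% of the liver had been resected. The groups were 6 livers null for Ager (Ager-null), 4 null for Myd88 (Myd88-null), 4 null for both (double-null) and 5 WT livers. Ager encodes RAGE, a receptor that binds HMGB1 among other ligands. The product of Myd88 couples most Toll-like receptors and the interleukin-1 receptor to NF-kappaB. All livers were resected, so every difference below is between genotypes after resection. The labels do not describe the null alleles, and they number samples as replicates without saying how mice map to them. P-values therefore measure the spread between these samples.

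Liver sinusoids are lined by a fenestrated endothelium without a continuous basement membrane, which takes up waste macromolecules from blood through scavenger and lectin receptors. The same cells release Wnt ligands, R-spondin and other angiocrine factors that act on neighbouring hepatocytes, including during regeneration. Under inflammatory cytokines the endothelium displays selectins and immunoglobulin-type adhesion molecules on which leukocytes roll and arrest. In RNA from whole liver, fewer endothelial cells and less RNA per cell cannot be told apart.

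The labelled genotype and tissue were checked against their genes. Myd88 lay between 3.11 and 3.85 (log2) in Myd88-null and between 2.6 and 3.86 in double-null livers, against 5.24 to 5.92 in WT livers. It lay between 5.43 and 6.39 in Ager-null livers. Ager lay between 2.85 and 3.64 on all arrays and never passed the filter, so it does not check the Ager labels. The extraction text of the labels speaks of glomeruli, whereas the tissue label is liver. Of 11 kidney markers on the array only Podxl, which endothelium also expresses, passed the filter, and group means of Nphs1, a podocyte gene, lay between 2.2 and 2.27. All 10 sinusoidal markers passed it on all 19 arrays. The array Myd88-null 4 stood apart, with a median correlation of 0.965 with the other arrays against at least 0.979 for each of the others, and with a mean deviation of its 17 Kupffer cell markers of -1.62. Sample descriptions carry an S number of unstated meaning, and all 6 Ager-null arrays lie in S 13 to 20 with 1 Myd88-null, 0 double-null and 1 WT array.

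Across the 31 endothelial and adhesion genes, none was called in any of 6 comparisons (limma, Benjamini-Hochberg adjusted p under 0.05 over 8515 genes). Among all genes tested, 1.26% were called for Ager-null against WT, 0.399% for Myd88-null against WT and 0.317% for double-null against WT. The share was 2.44% for double-null against Ager-null, 0.153% for double-null against Myd88-null and 2.41% for the interaction, the effect of Myd88 loss without Ager minus its effect with Ager. At an unadjusted p under 0.05 there were 3, 4, 2, 6, 2 and 3 of the 31 genes in the same order of comparisons. The shares of all genes at that threshold were 21.6%, 19.6%, 8.57%, 22.7%, 16.1% and 27.2%, each above the members' shares of 9.68%, 12.9%, 6.45%, 19.4%, 6.45% and 9.68%. Groups that did not overlap were found for 0, 1, 2, 0 and 0 of the 31 genes in the 5 pairwise comparisons, where 3.7%, 4.52%, 3.81%, 8.39% and 5.91% of all genes did not overlap. The comparisons share livers, so they are not independent of each other.

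**Figure D1:**
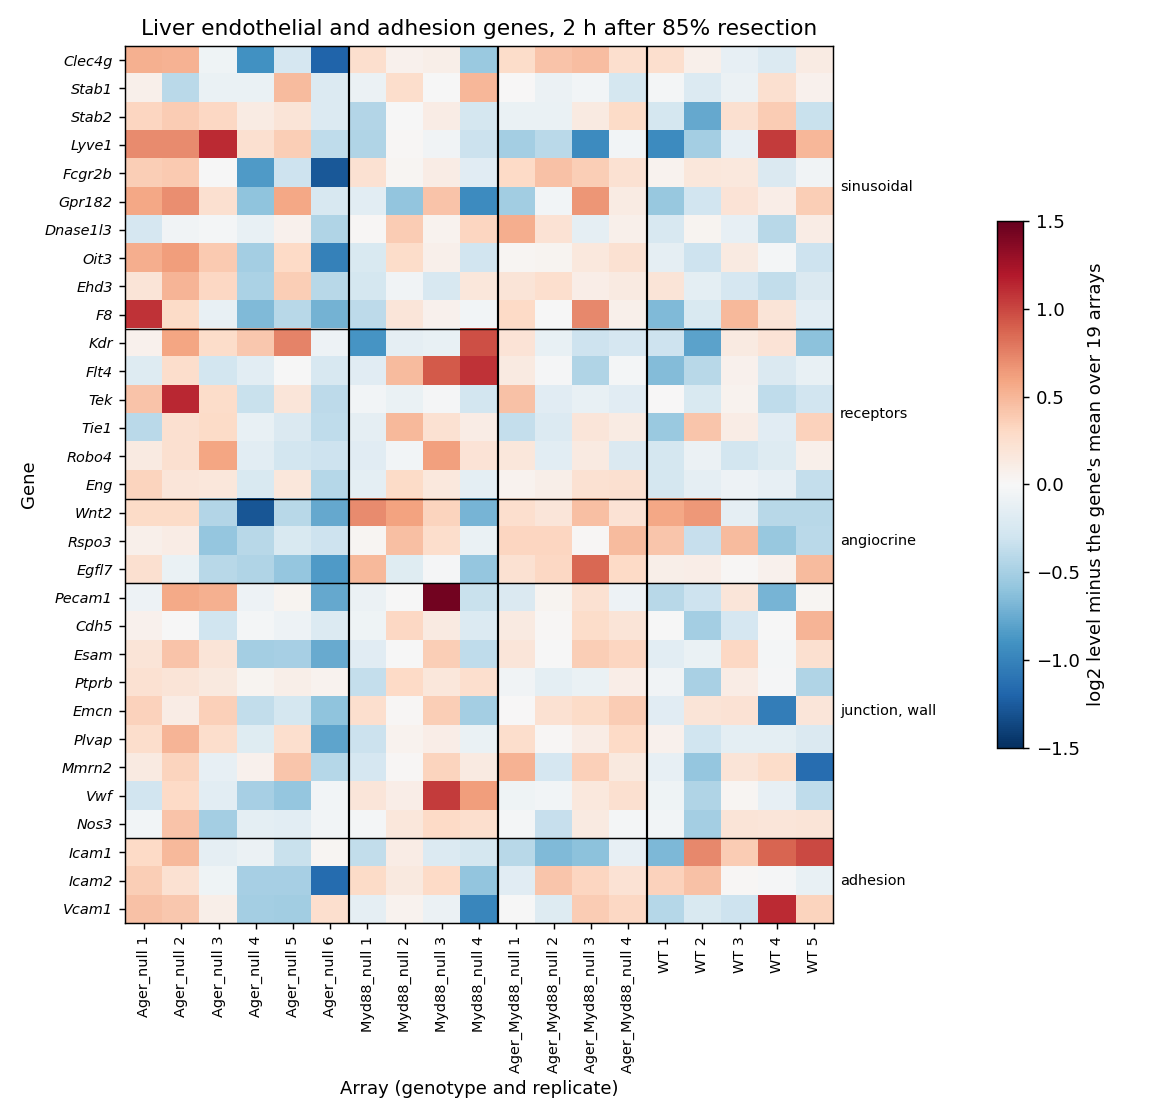
Heat map of the 31 tested genes (rows, grouped by role) on 19 arrays (columns, by genotype), coloured by log2 level minus the gene's mean over all arrays. Within Ager-null, arrays 1 and 2 are mostly red and array 6 mostly blue, with 28 genes above their mean on Ager-null 2 and 3 on Ager-null 6.

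Of the 10 sinusoidal markers, 6 had their largest SD in Ager-null livers (Clec4g, Fcgr2b, Oit3, F8, Ehd3 and Stab1), 1 in Myd88-null (Gpr182), 1 in double-null (Dnase1l3) and 2 in WT livers (Stab2 and Lyve1). Ranges below cover 6 Ager-null arrays but only 4 or 5 arrays of the other groups, and a range widens with the number of arrays. Clec4g, the lectin LSECtin, had a lowest, median and highest log2 level of 9.63, 10.67 and 11.36 in 6 Ager-null livers. It had 11.08, 10.89, 10.92 and 10.27 in Myd88-null, 11.11, 11.26, 11.29 and 11.08 in double-null, and 11.08, 10.90, 10.71, 10.62 and 10.95 in WT livers. The Ager-null values thus spanned those of every other group. Fcgr2b, the inhibitory Fc receptor that clears immune complexes, ran from 9.21 to 10.87 in Ager-null livers, a range of 1.66, against ranges of 0.41 in Myd88-null, 0.2 in double-null and 0.38 in WT livers. Oit3, a zona pellucida domain protein, had ranges of 1.63, 0.55, 0.21 and 0.44 in the same order of groups. F8, coagulation factor VIII, had ranges of 1.81, 0.57, 0.71 and 1.14. These 4 genes shared their lowest array, Ager-null 6, in the Ager-null group.

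The spread was not uniform over the 31 genes. The median SD of the 31 genes was 0.38 in Ager-null, 0.26 in Myd88-null, 0.19 in double-null and 0.28 in WT livers, beside 0.24, 0.28, 0.21 and 0.23 over all tested genes. The largest SD of the 4 groups was that of Ager-null livers for 12 genes, of Myd88-null for 8, of double-null for 1 and of WT livers for 10. Ager-null 6 was the lowest of the 19 arrays for 13 genes, and Ager-null 2 was the highest for 7. The mean deviation of the 31 genes from their own means was 0.23, 0.34, 0.07, -0.3, -0.04 and -0.46 on Ager-null arrays 1 to 6, and lay between -0.1 and 0.23 in Myd88-null, 0 and 0.14 in double-null and -0.17 and 0.06 in WT livers. The 6 Ager-null livers therefore reached both further above and further below the other groups. Each gene's SE rests on 1 spread pooled over all 4 groups. The spread of Ager-null livers thus also enters the SE and p-values of comparisons without them. Ptprb, an endothelial receptor tyrosine phosphatase, and Cdh5, VE-cadherin, had Ager-null ranges of only 0.18 and 0.37.

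Marker lists of other cells gave the following values on Ager-null arrays 1 to 6. The 13 hepatocyte markers deviated by 0.02, 0.09, 0.09, 0.01, 0.02 and 0.04, so their level varied little. The 17 Kupffer cell markers deviated by 0.37, 0.57, 0.09, -0.25, -0.54 and -0.38, and the 12 stellate cell markers by 0.21, 0.38, 0.22, 0.01, 0.26 and -0.2. Kupffer markers were thus also high on arrays 1 and 2 and low on 4 to 6. Pf4, the 1 tested platelet marker, deviated by 0.75, 0.42, -0.03, -0.37, -0.69 and -0.91. The 33 further endothelial genes of a separate list deviated by 0.16, 0.19, 0, -0.26, -0.12 and -0.62. The part of these other cells in the endothelial spread was not tested.

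**Figure D2:**
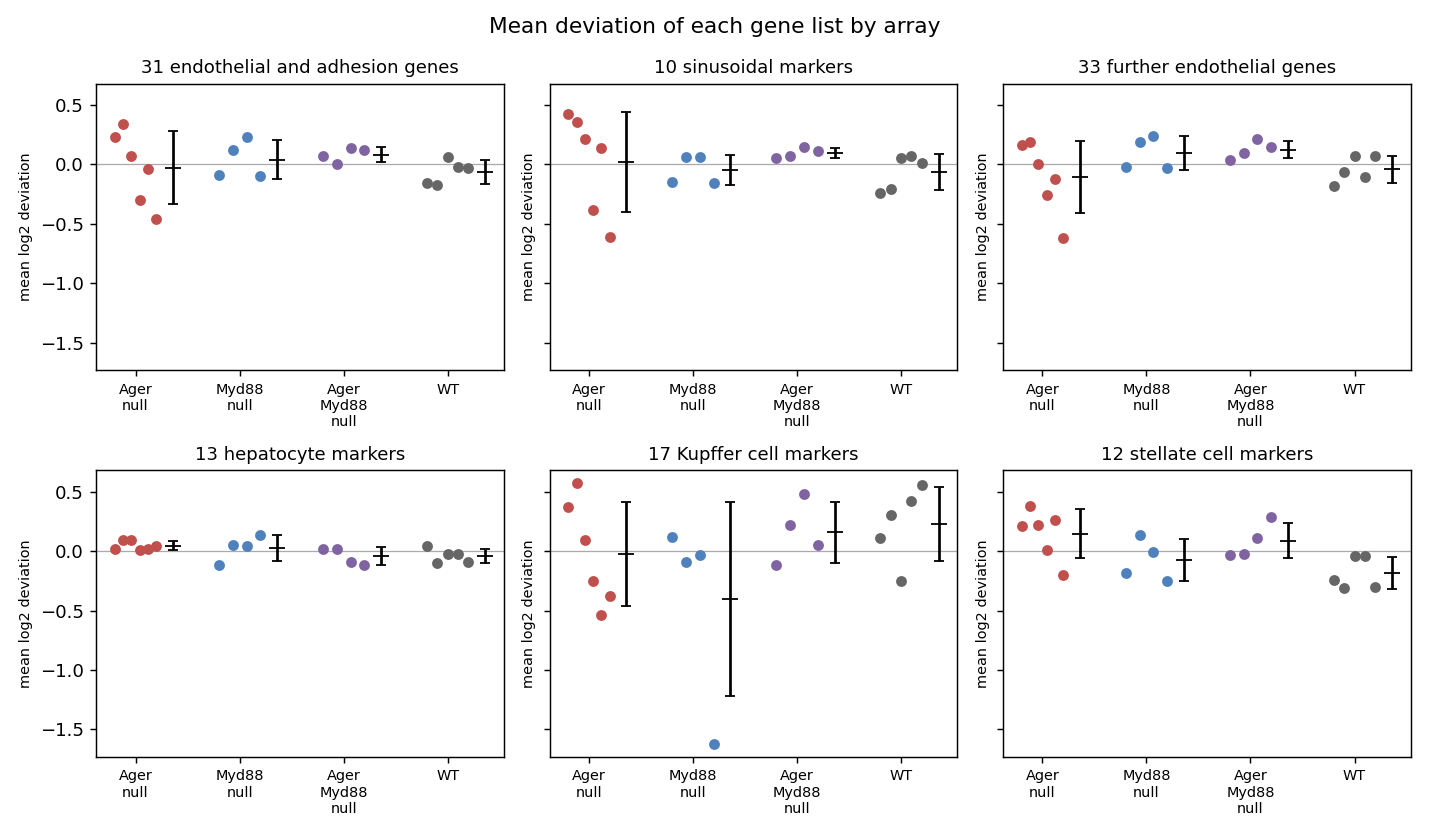
Mean log2 deviation of each gene list by array (points), with the group mean and SD (black), for Ager-null, Myd88-null, double-null and WT livers. Hepatocyte markers stay within 0.12 below and 0.14 above their means, whereas sinusoidal markers run from -0.61 to 0.42 in Ager-null livers.

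Among the sinusoidal markers, Lyve1, the hyaluronan receptor, differed most between double-null and Ager-null livers. It had 4.94, 5.04, 4.5 and 5.40 in double-null livers, against a lowest, median and highest of 5.07, 5.98 and 6.56 in Ager-null livers. The groups overlapped through Ager-null 6 at 5.07 and double-null 4 at 5.40. The difference was -0.94 ± 0.32 (SE, adjusted p = 0.108 by limma), and -0.79 with the second, dimmer probe set of Lyve1. Double-null and Ager-null arrays share no S range, so genotype and S range cannot be told apart in this comparison. Myd88-null livers had 4.99, 5.46, 5.39 and 5.12, and WT livers had 4.5, 4.93, 5.32, 6.49 and 5.94. WT values covered nearly the whole range of the other groups.

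Dnase1l3, a secreted DNase, had 6.43, 6.80, 6.47 and 6.74 in Myd88-null and 6.96, 6.63, 6.28 and 6.49 in double-null livers, against 6.17, 6.46, 6.29, 6.00 and 6.53 in WT livers. Its lowest, median and highest level in Ager-null livers were 5.96, 6.33 and 6.48. The differences from WT were 0.32 ± 0.15 in Myd88-null (SE, adjusted p = 0.244 by limma) and 0.30 ± 0.15 in double-null livers (SE, adjusted p = 0.593). Fcgr2b was one of 2 endothelial genes whose double-null and WT groups did not overlap, with 10.78, 10.91, 10.84 and 10.71 in double-null against 10.53, 10.64, 10.63, 10.26 and 10.42 in WT livers. The difference was 0.31 ± 0.26 (SE, adjusted p = 0.784), and 3.81% of all genes did not overlap in this comparison. The SE pools the spread of all 4 groups. For Fcgr2b the SD was 0.67 in Ager-null livers, which are not compared here, against 0.09 in double-null and 0.16 in WT livers. The scavenger receptors Stab1 and Stab2, with Gpr182, Ehd3, Oit3 and F8, had absolute differences of at most 0.38 in every pairwise comparison, and none reached an unadjusted p under 0.05. Ehd3, an endocytic recycling protein, lies on chromosome 17 as Ager does, 861 annotated genes away.

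Of the vascular receptors, Flt4, the receptor for VEGF-C and VEGF-D, stood highest in Myd88-null livers. It had 7.08, 7.73, 8.17 and 8.34 in Myd88-null livers, against 6.60, 6.84, 7.32, 7.04 and 7.14 in WT livers. Myd88-null arrays 2 to 4 exceeded every WT array, and Myd88-null 1 lay within the WT range. The difference was 0.84 ± 0.21 (SE, 95% CI 0.39 to 1.29, adjusted p = 0.0695 by limma). Under 29 alternatives it ran from 0.54, with the mean of probe sets, to 1.09, with adjusted p-values from 0.00337 to 0.246, and it was called under 3 of them. These were array weights, the S range block (adjusted p = 0.0497) and leaving out Myd88-null 1 (adjusted p = 0.00337). Without Myd88-null 1, however, 987 of all genes were called in this comparison, against 34 with it. Array weights called 785 of all genes there, and the S range block called 86. In arrays numbered S 1 to 6 the difference was 0.68 (2 Myd88-null against 2 WT arrays). It was 0.99 in S 7 to 12 (1 against 2) and 1.2 in S 13 to 20 (1 against 1, where the 1 is Myd88-null 4), so these last values rest on single arrays. A second Flt4 probe set, with a mean of 3.41, gave 0.25.

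For Flt4, double-null livers had 7.39, 7.24, 6.80 and 7.23, and Ager-null livers had a lowest, median and highest of 6.98, 7.08 and 7.52. Double-null was lower than Myd88-null by -0.66 ± 0.22 (SE, adjusted p = 0.229 by limma), and without Myd88-null 1 by -0.91 (adjusted p = 0.0242), where 446 of all genes were called against 13 with it. The S ranges differed: double-null minus Myd88-null was -0.08 in S 1 to 6 (2 against 2 arrays) and -1.15 in S 7 to 12 (2 against 1). Double-null minus WT was 0.6 in S 1 to 6 and -0.17 in S 7 to 12 (2 against 2 arrays each). The interaction was -0.83 ± 0.3 (SE, adjusted p = 0.0993 by limma). It was -0.43 with the S range block (adjusted p = 0.636) and -1.08 without Myd88-null 1 (adjusted p = 0.00905), where 1739 of all genes were called against 205 with it. Kupffer cell markers on Myd88-null 4, the array with the highest Flt4, deviated by -1.62, and the part of that array's makeup in the Flt4 values was not tested.

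Kdr, the main VEGF-A receptor of endothelium, had a lowest, median and highest level of 6.39, 6.81 and 7.21 in Ager-null livers, against 6.16, 5.67, 6.61, 6.67 and 5.86 in WT livers. It had 5.58, 6.34, 6.36 and 7.44 in Myd88-null and 6.68, 6.36, 6.16 and 6.22 in double-null livers. Ager-null livers were in the upper part of the WT range or above it, and Myd88-null livers held both the lowest and the highest array of all. The Ager-null difference from WT was 0.61 ± 0.26 (SE, adjusted p = 0.182 by limma). It was 0.28 with the S range block (adjusted p = 0.781) and 0.73, and called, with array weights (adjusted p = 0.0376). With array weights 711 of all genes were called in this comparison, against 107 without them.

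Eng, endoglin, a co-receptor for BMP9 and TGF-beta, was the other gene whose double-null and WT groups did not overlap. It had 8.41, 8.44, 8.58 and 8.6 in double-null against 8.09, 8.22, 8.28, 8.23 and 8.00 in WT livers, a difference of 0.34 ± 0.14 (SE, adjusted p = 0.493 by limma). Myd88-null livers had 8.21, 8.64, 8.51 and 8.21, and Ager-null livers had a lowest, median and highest of 7.93, 8.52 and 8.69. Tek, the receptor of the angiopoietins, Tie1, its partner, and Robo4, a guidance receptor of vessels, had differences between -0.25 and 0.38 in the pairwise comparisons. Flt1, the decoy receptor for VEGF-A, lay between 2.65 and 3.34 on all arrays and did not pass the filter.

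**Figure D3:**
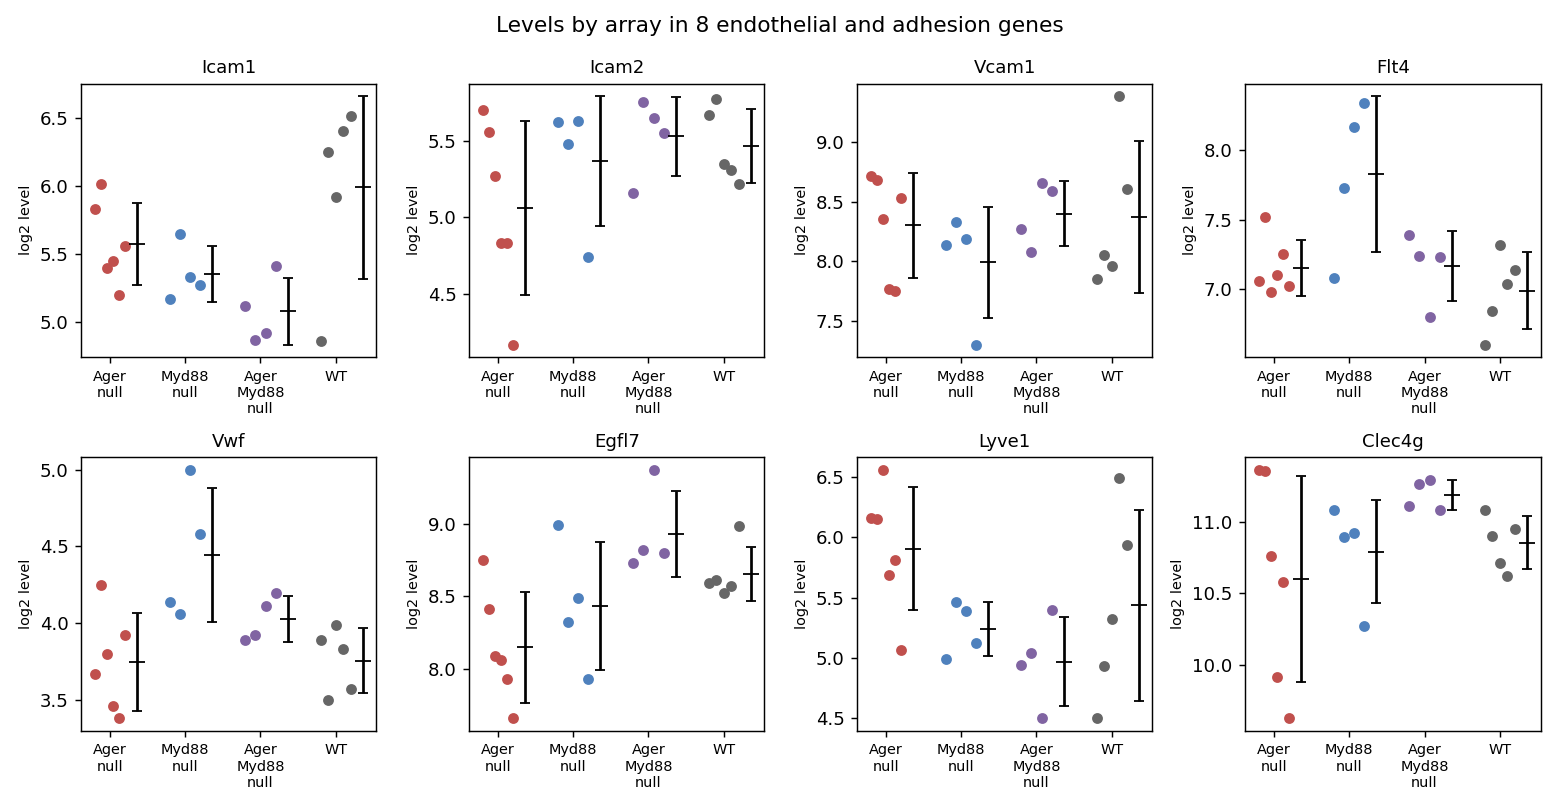
Log2 levels of 8 genes by array (points) with the group mean and SD (black), in Ager-null, Myd88-null, double-null and WT livers. Flt4 and Vwf are highest in Myd88-null livers, Icam1 is lowest in double-null livers apart from 1 low WT array, and Clec4g is most spread in Ager-null livers.

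The angiocrine factor Egfl7, a secreted protein of endothelium, had the smallest adjusted p of the 31 genes in 3 of the 6 comparisons. It had 8.73, 8.82, 9.37 and 8.80 in double-null livers, against a lowest, median and highest of 7.66, 8.07 and 8.75 in Ager-null livers. Only Ager-null 1, at 8.75, reached the lowest double-null array. The difference was 0.78 ± 0.21 (SE, 95% CI 0.34 to 1.22, adjusted p = 0.0534 by limma). The other 3 Egfl7 probe sets gave 0.08, 0.53 and 0.88. Without Ager-null 1 the difference was 0.9 (adjusted p = 0.0333), and with the S range as block it was 0.66 (adjusted p = 0.422).

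Against WT livers, with 8.59, 8.61, 8.52, 8.57 and 8.98, Ager-null livers were lower by -0.5 ± 0.19 (SE, adjusted p = 0.149 by limma). Myd88-null livers had 8.99, 8.32, 8.49 and 7.93, and double-null exceeded them by 0.5 ± 0.23 (SE, adjusted p = 0.302). The interaction was 1 ± 0.3 (SE, adjusted p = 0.0646 by limma), the sum of a difference of 0.78 where Ager was absent and one of -0.22, with its sign turned, where Ager was present. All Ager-null arrays lie in S 13 to 20 with 1 WT, 1 Myd88-null and 0 double-null arrays, which limits what a block can separate. Double-null and Ager-null arrays share no S range. Within S 13 to 20 Ager-null minus WT was -0.83.

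Egfl7 is known as the host gene of miR-126, a microRNA of endothelium. In RefSeq (GRCm38.p6) the mature miR-126a-3p lies inside Egfl7 at chr2:26591402-26591423 on the plus strand, shown with its seed (bases 2 to 8) in capitals because Egfl7 had the largest interaction estimate of the 31 genes. The array did not measure the mature form.
miR-126a-3p: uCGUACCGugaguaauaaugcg

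Rspo3, an R-spondin that amplifies Wnt signalling, had 5.81, 5.81, 5.51 and 5.97 in double-null livers, against a lowest, median and highest of 4.91, 5.22 and 5.60 in Ager-null livers. The difference was 0.51 ± 0.2 (SE, adjusted p = 0.153 by limma). Myd88-null livers had 5.52, 5.94, 5.75 and 5.39, and WT livers had 5.91, 5.15, 5.96, 4.92 and 5.08, with WT arrays at both ends of that range. Wnt2, a Wnt ligand released by sinusoidal cells, had 6.17, 6.09, 6.37 and 6.13 in double-null livers, against a lowest, median and highest of 4.63, 5.49 and 6.2 in Ager-null livers. It differed by 0.67 ± 0.32 between double-null and Ager-null livers (SE, adjusted p = 0.221). The 3 tested angiocrine factors had a median difference of 0.67 between double-null and Ager-null livers, against 0.04 over all genes. With the S range block Wnt2 turned to -0.21 and Rspo3 was 0.14, so their direction or size depended on how the S ranges were treated. Angpt2, the angiopoietin that antagonises Tek in many vessels, lay between 2.53 and 3.48 on all arrays and was not tested.

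In the junction and vessel wall group, Vwf, von Willebrand factor, was the 1 gene whose Myd88-null and WT groups did not overlap, where 4.52% of all genes did not. It had 4.14, 4.06, 5 and 4.58 in Myd88-null livers, against 3.89, 3.50, 3.99, 3.83 and 3.57 in WT livers. The difference was 0.69 ± 0.19 (SE, 95% CI 0.29 to 1.09, adjusted p = 0.0898 by limma). Levels were near the filter, with 7 of 19 arrays over log2 4. These included all 4 Myd88-null arrays and no WT array, so Vwf entered the test through the group where it was high. Its lack of overlap and its calls below are therefore no independent support. With values under 4 set to 4 the difference was 0.45. By S range, Myd88-null exceeded WT by 0.4 for numbers 1 to 6 (2 against 2 arrays), by 1.09 for 7 to 12 (1 against 2) and by 1.01 for 13 to 20 (1 against 1). Vwf was called when the S range was blocked (adjusted p = 0.0497) and without Myd88-null 1 (adjusted p = 0.0254), 2 of 28 alternatives, with adjusted p-values up to 0.263. Double-null livers had 3.89, 3.92, 4.11 and 4.20, and Ager-null livers had a lowest, median and highest of 3.38, 3.73 and 4.25.

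Ptprb had a lowest, median and highest of 9.28, 9.35 and 9.46 in Ager-null livers, against 9.18, 8.75, 9.35, 9.22 and 8.78 in WT livers. The difference was 0.3 ± 0.13 (SE, adjusted p = 0.174 by limma). Myd88-null livers had 8.88, 9.53, 9.40 and 9.49, and double-null livers had 9.18, 9.09, 9.14 and 9.33. The interaction was -0.44 ± 0.19 (SE, adjusted p = 0.156), and a second bright probe set gave -0.92. Pecam1, the junctional adhesion protein CD31, differed by 0.5 ± 0.31 in Myd88-null against WT livers, with Myd88-null 3 at 5.54 and the other 3 arrays between 3.76 and 4.08. Cdh5, Esam, Emcn, Plvap, the diaphragm protein of fenestrae, Mmrn2 and Nos3, the endothelial nitric oxide synthase, had no unadjusted p under 0.05 in any comparison. Sox18, a transcription factor of vessel development, lay between 2.41 and 3.98 and was not tested.

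Of the leukocyte adhesion molecules, Icam1, the ligand of the leukocyte integrins LFA-1 and Mac-1, was lower in the Myd88-deficient livers than in most WT livers. It had a lowest, median and highest of 5.20, 5.51 and 6.02 in Ager-null livers. Levels were 5.17, 5.65, 5.33 and 5.27 in Myd88-null and 5.12, 4.87, 4.92 and 5.41 in double-null livers, against 4.86, 6.25, 5.92, 6.41 and 6.52 in WT livers. WT 1, at 4.86, was the lowest of all 19 arrays, and the other 4 WT arrays exceeded every Myd88-null and double-null array.

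The Icam1 difference was -0.92 ± 0.26 in double-null against WT livers (SE, 95% CI -1.46 to -0.37, adjusted p = 0.212 by limma). It was -0.64 ± 0.26 in Myd88-null against WT livers (SE, adjusted p = 0.194) and -0.42 ± 0.24 in Ager-null against WT livers (SE, adjusted p = 0.314). Without WT 1 it was -1.2 (adjusted p = 0.00358) for double-null and -0.92 (adjusted p = 0.0468) for Myd88-null, the 1 alternative of 29 that called either. With array weights the Myd88-null difference was -0.39. Within S 1 to 6 and S 7 to 12 double-null minus WT was -0.56 and -1 (2 against 2 arrays each). Myd88-null minus WT was -0.15 in S 1 to 6 (2 against 2), the range that holds WT 1. It was -0.84 in S 7 to 12 (1 against 2) and -1.26 in S 13 to 20 (1 against 1), values that rest on single arrays. The 11 tested cytokine response genes had a mean deviation of 0.07 on WT 1 and of 0.17 to 0.85 on the other WT arrays, and the part of this in the Icam1 values was not tested. Icam1 lies on chromosome 9 as Myd88 does, 2071 annotated genes away.

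Icam2, a constitutive ligand of LFA-1, and Vcam1, the ligand of the integrin VLA-4, did not stand below most WT livers in both Myd88-deficient groups. Icam2 had a lowest, median and highest of 4.17, 5.05 and 5.70 in Ager-null livers. It had 5.62, 5.48, 5.63 and 4.74 in Myd88-null, 5.16, 5.75, 5.65 and 5.55 in double-null and 5.67, 5.77, 5.35, 5.31 and 5.22 in WT livers. Vcam1 had a lowest, median and highest of 7.75, 8.45 and 8.72 in Ager-null livers. It had 8.14, 8.33, 8.19 and 7.30 in Myd88-null, 8.27, 8.08, 8.66 and 8.59 in double-null and 7.85, 8.05, 7.96, 9.39 and 8.61 in WT livers. The Myd88-null minus WT difference of Vcam1 was -0.38 ± 0.3 (SE, adjusted p = 0.492 by limma). Dimmer Vcam1 probe sets, with means of 5.85 and 4.24, gave -0.74 and -0.17 there. For double-null minus WT they gave 0.04 and -0.1. The double-null minus WT differences were 0.07 (95% CI -0.48 to 0.61) for Icam2 and 0.03 (95% CI -0.6 to 0.66) for Vcam1, intervals that leave room for changes of more than 0.4 in either direction.

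Sele and Selp, the endothelial selectins on which leukocytes roll, were dim on every array. Sele lay between 1.93 and 2.52 and Selp between 2.77 and 3.46, and 0 of 19 arrays were over the filter for either. No difference in the selectins was therefore detectable on these arrays.

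The upstream sequences of the 3 adhesion genes that RefSeq promoter windows held (GRCm38.p6, 250 bases before the start) are shown because Icam1 and the selectins are known targets of NF-kappaB. Capitals mark matches to the kappaB-type motif GGNNNTTCC or its reverse complement GGAANNNCC.
Icam1, chr9:21015690-21015939, plus strand: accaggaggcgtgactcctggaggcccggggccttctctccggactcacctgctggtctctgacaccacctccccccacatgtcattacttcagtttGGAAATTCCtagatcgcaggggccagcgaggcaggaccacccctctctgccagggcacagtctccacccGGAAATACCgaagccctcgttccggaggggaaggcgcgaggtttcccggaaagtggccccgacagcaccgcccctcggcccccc
Sele, chr1:164047984-164048233, plus strand: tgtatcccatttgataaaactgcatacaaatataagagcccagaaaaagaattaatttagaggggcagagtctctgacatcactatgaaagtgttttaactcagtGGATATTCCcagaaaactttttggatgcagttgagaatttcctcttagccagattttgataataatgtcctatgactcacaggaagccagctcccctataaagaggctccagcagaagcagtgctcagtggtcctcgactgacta
Selp, chr1:164115014-164115263, plus strand: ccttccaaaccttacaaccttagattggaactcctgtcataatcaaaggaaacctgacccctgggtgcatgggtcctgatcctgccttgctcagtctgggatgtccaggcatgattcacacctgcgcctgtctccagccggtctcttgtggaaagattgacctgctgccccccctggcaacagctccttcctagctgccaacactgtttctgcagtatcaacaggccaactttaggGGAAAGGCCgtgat

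The Icam1 window held 2 matches, 153 to 145 and 84 to 76 bases before the start, and the Sele window held 1, 145 to 137 bases before it. The Selp match lay 14 to 6 bases before the start. Windows were found for 19 of the 36 genes, 21 windows in all, and 6 of them held a match, against 15.7% of 32851 windows of the same length. The ETS-type motif AGGAAG or its reverse complement CTTCCT was in 12 of the 21 windows and in 29.5% of all windows. The TATA-type motif TATAAA, searched only on the strand printed, was in 2 of the 21 and in 7.59% of all windows. A match of letters is a description and not a site.

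**Figure D4:**
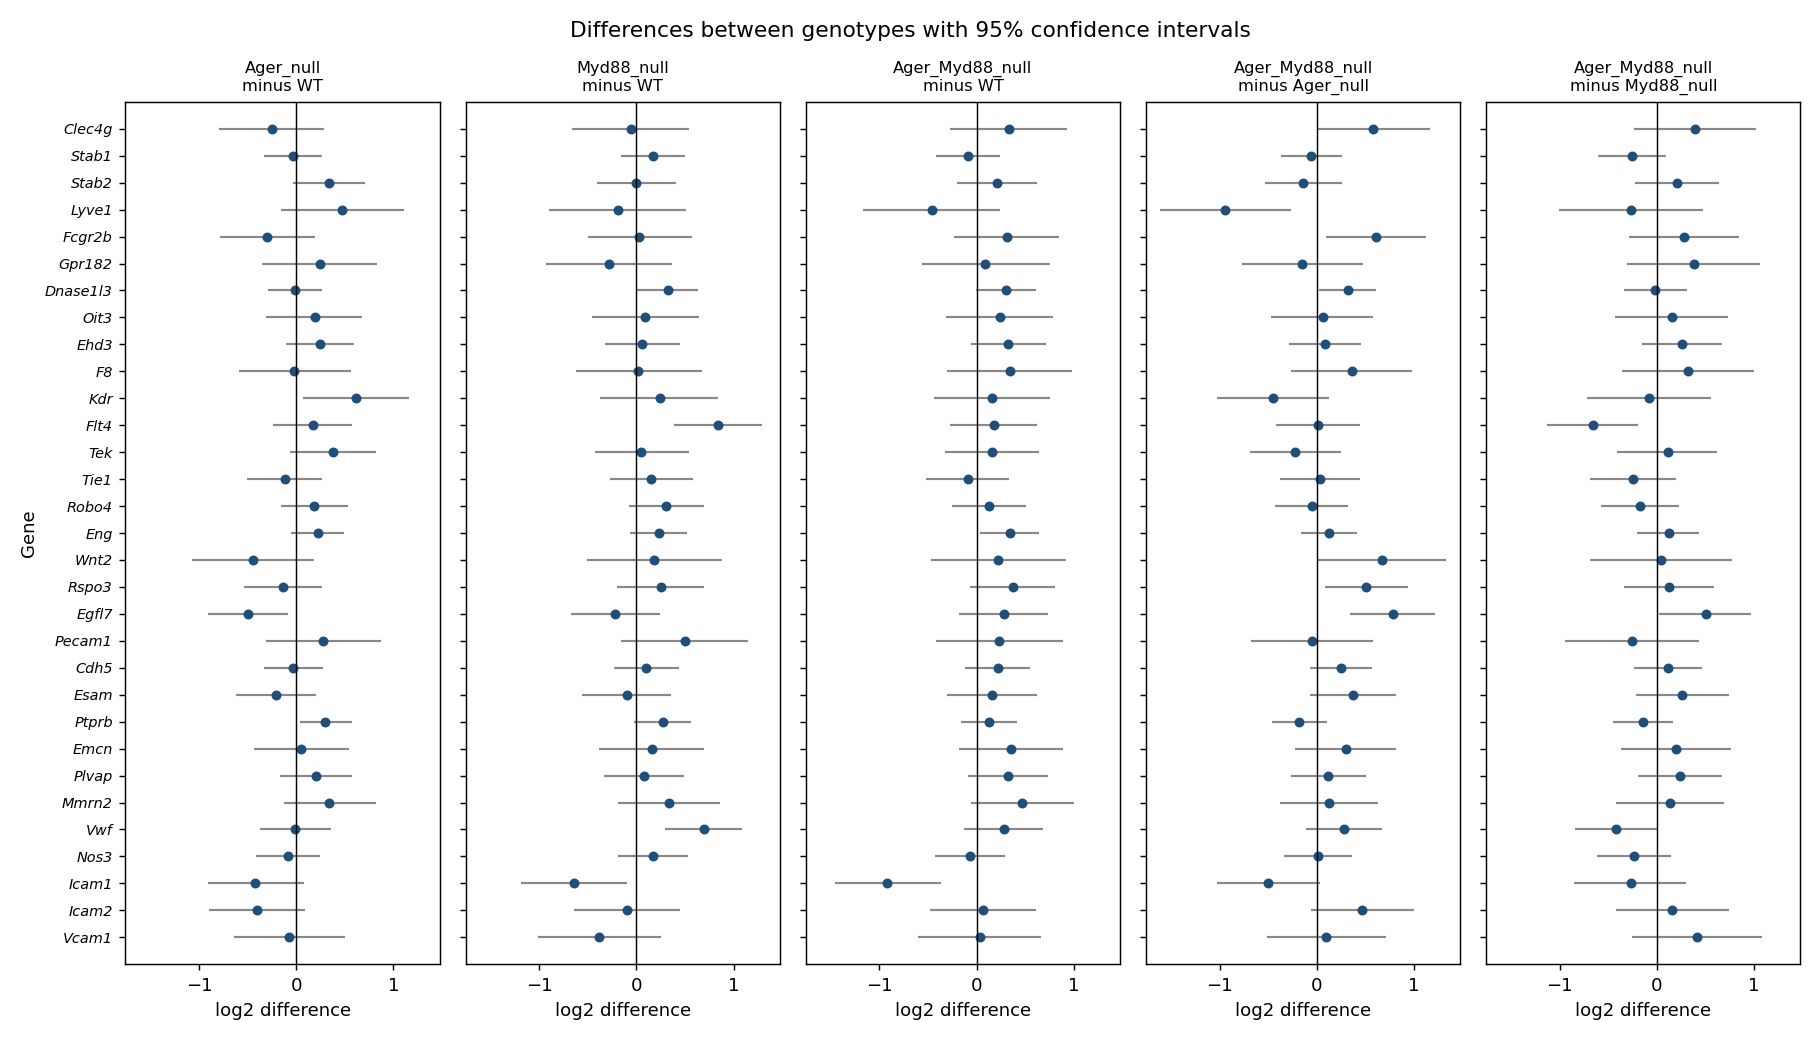
Log2 differences of the 31 genes (points) with 95% confidence intervals (lines) in 5 comparisons, the group named before minus in the panel title minus the one after it. Intervals clear of 0, not all named here, include Flt4 in Myd88-null against WT, Icam1 in double-null against WT and Egfl7 in double-null against Ager-null. The Vwf interval in Myd88-null against WT is also clear of 0, but Vwf entered the test through the group where it was high. The intervals are unadjusted, and none of the 31 genes was called after adjustment over 8515 genes.

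Over all 31 genes, 15 were above and 16 below WT in Ager-null livers, 23 above and 8 below in Myd88-null livers and 26 above and 5 below in double-null livers. The median differences were -0.01, 0.1 and 0.22 in that order, beside 0.02, 0.06 and 0.07 over all genes. These figures moved with the scaling. With median centring Myd88-null livers had 15 genes above and 16 below WT (median -0.01) and double-null livers 24 above and 7 below (median 0.12). With quantile normalization the Myd88-null tally was 18 above and 13 below (median 0.01) and the double-null tally 23 above and 8 below (median 0.13). With the filter at log2 6 the Ager-null median was 0.19. Double-null livers had 21 genes above and 10 below Ager-null livers, with a median of 0.1 against 0.04 over all genes. They had 19 above and 12 below Myd88-null livers, with a median of 0.12 against 0.

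Lists of other endothelial genes held few called genes. There was 1 among 33 further endothelial genes, in Ager-null against WT, where 1.26% of all genes were called. Of 14 junction partners 1 was called in Myd88-null against WT, where the share was 0.399%. Of 6 leukocyte counter-receptors 1 was called in the interaction, where it was 2.41%. Cav1, caveolin-1, fell in Ager-null livers, with a difference of -0.68 ± 0.16 (SE, adjusted p = 0.048 by limma) and levels of 3.84 to 4.44 in Ager-null against 4.37 to 5.25 in WT livers. Levels were also low, at 3.94 to 4.38, in Myd88-null livers, and were 3.99 to 4.69 in double-null livers. Cav1 was not called in either group against WT, and its levels lay near the filter. The Ager-null call held under 11 of 28 alternatives, with adjusted p-values by limma from 0.0214 to 0.333. Jup, plakoglobin, a junction protein that hepatocytes also express, rose in Myd88-null livers by 1.06 ± 0.21 (SE, adjusted p = 0.0297). It had 6.08, 6.24, 6.07 and 7.36 in Myd88-null against 5.02 to 5.67 in WT livers, and was called under 23 of 29 alternatives. Glg1, a ligand for E-selectin in mouse leukocytes and a Golgi protein of many cells, had an interaction of -1.66 ± 0.41 (SE, adjusted p = 0.0444), called under 11 of 29 alternatives.

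No endothelial ligand of 6 and no endothelial transcription factor of 10 was called in any comparison. At an unadjusted p under 0.05 there were 0, 1, 0, 1, 0 and 0 ligands and 5, 3, 0, 2, 3 and 4 transcription factors in the 6 comparisons, in the order given above. Of all genes, 21.6%, 19.6%, 8.57%, 22.7%, 16.1% and 27.2% passed that threshold. The 11 cytokine response genes had a median difference of -0.37 in Ager-null, -0.43 in Myd88-null and -0.52 in double-null against WT livers. Medians over all genes were 0.02, 0.06 and 0.07. At an unadjusted p under 0.05 their shares were 18.2%, 45.5%, 72.7%, 54.5%, 18.2% and 9.09% in the 6 comparisons. This list, too, was chosen with earlier results known. In double-null against WT, double-null against Ager-null and the interaction 1 of the 11 was called each, beside 0.317%, 2.44% and 2.41% of all genes. Cxcl10, a chemokine, fell in double-null livers, with a difference of -1.88 ± 0.39 (SE, adjusted p = 0.0437 by limma) and 4.39, 4.46, 4.07 and 4.46 in double-null against 5.13, 7.30, 5.54, 6.04 and 7.09 in WT livers. It was called under 12 of 28 alternatives. Nfkbiz, an inducible NF-kappaB cofactor, was lower in double-null than in Ager-null livers by -1.13 ± 0.28 (SE, adjusted p = 0.0459), and was called under 15 of 29 alternatives. Junb, an AP-1 subunit, had an interaction of -1.01 ± 0.26 (SE, adjusted p = 0.0491 by limma), called under 7 of 29 alternatives. With the S range block Cxcl10, Nfkbiz and Junb were not called, nor were Cav1 and Glg1, whereas Jup was.

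Among markers of other cells, Col1a2, 1 of 12 tested stellate cell markers, and Igha, the 1 tested lymphocyte marker, were called. Of all genes, 1.26%, 0.399% and 0.317% were called in Ager-null, Myd88-null and double-null against WT, and 2.44% in double-null against Ager-null. Col1a2, a collagen of stellate cells, rose by 0.72 ± 0.15 in Ager-null against WT livers (SE, adjusted p = 0.0357 by limma), called under 18 of 27 alternatives. It was lower in double-null than in Ager-null livers by -0.64 ± 0.16 (SE, adjusted p = 0.0475 by limma), called under 7 of 27. Levels were 3.87 to 4.79 in Ager-null and 3.39 to 3.79 in WT livers. Only Ager-null arrays were over log2 4, so Col1a2 entered the test through the group where it was high. Neither call held without the filter, with values under 4 set to 4 or with the S range block. Igha, the immunoglobulin A heavy chain of plasma cells, rose against WT by 1.35 ± 0.28 in Ager-null, 2.04 ± 0.31 in Myd88-null and 2.17 ± 0.31 in double-null livers (SE, adjusted p = 0.0326, 0.00368 and 0.00137). WT levels of Igha lay near the filter, at 3.6 to 4.22, against 4.79 to 5.75 in Ager-null livers. The Igha call in Ager-null livers held under 19 of 29 alternatives, the S range block not among them. The Igha calls in Myd88-null and double-null livers held under all 29. Their part in the endothelial values was not tested.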

How the data were processed

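RNA of 19 livers was measured, 1 array each. The deposited values are on a log2 scale for each probe set and were not normalized again. Per the submitters' processing notes the authors used GCRMA 2.16. Further upstream settings: not given in the sources used here. Of 45101 probe sets, 64 controls, 932 naming several genes and 9160 naming none were left out. Each of 18193 genes took its brightest single-symbol probe set, and genes over log2 4 on at least 4 arrays (8515) were tested. Genotypes came from the sample labels. A single model of 4 groups was fitted to all tested genes (limma 3.58.1, R 4.3.3, moderated, two-sided), with Benjamini-Hochberg adjustment over all tested genes and calls at an adjusted p under 0.05; the fit was tested on simulated data. Deviations are log2 levels minus the gene's mean over 19 arrays, averaged over a list. Named genes were the leukocyte adhesion molecules, the 3 members with the smallest p of each comparison and called genes of the other lists (at most 6 a list and comparison). The members and lists were chosen with earlier results of these data known. Arrays have no sequencing depth; their number limits the precision. Alternatives covered scaling, filters, probe sets, blocks, priors, array weights and leaving out each array.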

Additional observations from a re-analysis of the deposited data

Results flagged for a closer look

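Among 124 groups of values examined for a single array far from its group, 3 were found, where chance gives about 1 in 20. Tek stood at 6.13 on double-null 1, with the next array at 5.58 and the lowest at 5.52. Egfl7 stood at 9.37 on double-null 3, with the next array at 8.82 and the lowest at 8.73. Egfl7 also stood at 8.98 on WT 5, with the next array at 8.61 and the lowest at 8.52. Without double-null 3 the Egfl7 difference between double-null and Ager-null livers was 0.63 (adjusted p = 0.21 by limma), against 0.78 with it.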

How the results depend on the processing

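Of 634 single-gene values under 29 alternatives, 609 kept their direction and side of the threshold, 24 became called and 1 turned, Icam1 in the interaction at -0.15 with array weights against 0.14. Over all 186 pairs of member and comparison, 75 changed sign under some alternative and 13 were called under some. The count of called members, 0 in each comparison, became 1, 3, 2 and 3 with array weights for Ager-null against WT, Myd88-null against WT, double-null against Ager-null and the interaction, and 2 for Myd88-null against WT with the S range as a block. For double-null against Ager-null it was 1 with a filter at log2 6, 1 with the mean of probe sets and 1 with a trend and robust prior. All genes called there were 192, 270 and 213, against 208 in the main fit. Leaving out each array gave 0 for Ager-null against WT, 0 to 3 for Myd88-null against WT, 0 to 1 for double-null against WT, Ager-null and Myd88-null, and 0 to 3 for the interaction. Single arrays also moved the calls over all genes: without Myd88-null 1 they were 987 for Myd88-null against WT (34 otherwise) and 1739 for the interaction (205 otherwise), and the interaction had 0 without Myd88-null 3, Myd88-null 4 or double-null 3. The causes were not tested. Same-numbered samples correlated at -0.302 to 0.471, over 0.1 in 9 of 25 pairs. Their median was 0.052, against 0.005 for differently numbered pairs. The labels do not say whether numbers pair samples, and these correlations cannot exclude it. With the replicate block 0 members were called in each comparison. All genes called were then 127 (107 otherwise) for Ager-null, 24 (34) for Myd88-null and 46 (27) for double-null against WT. They were 138 (208) for double-null against Ager-null, 3 (13) against Myd88-null and 37 (205) in the interaction. The S range block gave 59, 86, 26, 120, 5 and 0 in that order. Array weights gave 711 called genes for Ager-null against WT (107 otherwise) and 785 for Myd88-null against WT (34). They gave 619 for double-null against Ager-null (208) and 1382 for the interaction (205). With median centring, Myd88-null against WT had 5 genes higher and 7 lower, against 27 and 7, as the median of all genes moved to -0.05 from 0.06. Dim probe sets and 4 to 6 arrays per group limit what could be called.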
